A study of Homo sapiens with 24 samples.

Results

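HepG2 liver cancer cells that carried the K154R glucocorticoid receptor were compared with cells that carried the wild-type (WT) receptor, both after dexamethasone, a synthetic glucocorticoid. Members were chosen by the sample titles, which placed 4 libraries in K154R with dexamethasone and 4 in WT with dexamethasone, 8 of the 24 libraries of the study. HepG2 is an established human hepatocellular carcinoma line with many hepatocyte features. All cells used here were HepG2 GR-/-, in which the endogenous receptor gene NR3C1 had been knocked out with CRISPR/Cas9; the genotype labels read sg18+WT and sg18+K154R. A doxycycline-inducible lentiviral construct then supplied a Ty1-tagged cDNA of WT, K154R (acetylation-deficient) or K154Q (acetylation-mimetic) receptor. Both groups had 24 h of doxycycline at 0.3 to 1 µg/mL, set to match receptor protein, so the doxycycline dose may differ between the lines. They then had 24 h of washout in RPMI1640 with 10% charcoal-stripped serum, and 6 h of 1 µM dexamethasone; the vehicle groups used beside them had ethanol in its place. The receptor came from an induced transgene in transduced cells, not from its own promoter.

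Per the series text, each group of 4 replicates stands for 2 experiments, each with 2 transductions of its own. How the replicate numbers map onto these was not known here, and p-values measure the spread between these cultures. The question named in the series text is what acetylation of Lys154 of the receptor does to gene regulation by dexamethasone.

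The glucocorticoid receptor is a nuclear receptor that waits in the cytoplasm on chaperones such as HSP90. When hormone binds, it enters the nucleus, binds glucocorticoid response elements as a dimer and recruits coregulators, many of which add or remove acetyl groups. In hepatocytes it raises genes of gluconeogenesis, amino acid breakdown and the circadian clock, and it holds down inflammatory genes. An arginine in place of a lysine keeps the positive charge and cannot be acetylated at that position.

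The residue that sets the K154R and WT cells apart lies in the N-terminal transactivation part of the receptor. In the reference coding sequence of NR3C1 (GENCODE 29), the Lys154 codon, of 777 coding codons, is in exon 2 at chr5:143400378-143400380 of GRCh38, on the minus strand. The sequence around it is shown because this codon is the designed difference between the groups, and capitals mark the lysine codon.
NR3C1 around the Lys154 codon, chr5:143400348-143400410, minus strand: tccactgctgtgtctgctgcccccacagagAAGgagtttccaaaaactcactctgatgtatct
This is the reference gene, and the codons of the introduced cDNAs were not analysed here.

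NR3C1 messenger RNA, the knocked-out gene and the introduced one together, was at similar levels in both groups. It measured 87.5, 108, 74.0 and 83.9 CPM (a gene's share of a library's counts, scaled between libraries by the TMM method) in WT libraries 1 to 4. In K154R libraries 1 to 4 it measured 88.2, 94.1, 70.7 and 80.5 CPM. The K154R values lay inside the range of the WT values or just under it. The log2 difference, K154R minus WT, was -0.08 with a standard error (SE) of 0.14 (unadjusted p = 0.545, edgeR quasi-likelihood F test), and it was 0.03 when WT library 2 was left out. Gene counts cannot tell WT from K154R messenger RNA, so this level does not check the labels.

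The 8 libraries held 27485127 to 34551677 counts, of which 6.67% to 9.16% fell on the mitochondrial genome. Hepatocyte markers such as ALB summed to 56070 to 64071 CPM in WT and 53506 to 62348 CPM in K154R libraries. Markers of leukocytes summed to at most 1.81 CPM and those of endothelium to at most 4.52 CPM. The leukocyte genes PTPRC, CD3E and LST1, the fibroblast genes COL1A2, DCN and LUM, the neurofilament genes NEFM and NEFL and the cholangiocyte gene CFTR had 0 counts in all 8 libraries.

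With dexamethasone present, no gene reached the threshold between K154R and WT cells. Of the 16196 genes tested, 0 had an adjusted p under 0.05 (0% called; edgeR quasi-likelihood F test with Benjamini-Hochberg adjustment, smallest adjusted p = 1.00). With the replicate number as a block in the same fit, 2 were called, CD44 and PKIB, both lower in K154R cells, and with that block in the 8 libraries alone 0 were. At an unadjusted p under 0.05 there were 253 genes, 1.56% of those tested, of which 128 were higher (0.79%) and 125 lower (0.772%) in K154R cells. With the replicate block 942 genes were under this cut. With no difference in any gene a share near 0.05 would be, so the p-values of the fit without block ran large. Its 0 calls therefore do not show equal levels. DESeq2 also called 0 genes, with 219 at an unadjusted p under 0.05. In 156 genes (0.963%) all 4 K154R libraries lay above (76 genes, 0.469%) or below (80 genes, 0.494%) all 4 WT libraries.

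Bounds were fairly tight for genes that averaged 5 CPM or more across these libraries. There were 10369 of these, with a median SE of 0.104 on the log2 scale and a median absolute log2 difference of 0.055. The 95% interval of the difference lay within 1.5-fold either way for 9995 of them (96.4%) and within 2-fold for 10342 (99.7%). None had a fitted difference beyond 2-fold, and 4 exceeded 0.5 on the log2 scale: DKK1, and LAMC3, CLDN6 and TMEM59L, which were named after their values were seen. All 52 genes with a fitted difference beyond 2-fold had less than 5 CPM.

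**Figure D1:**
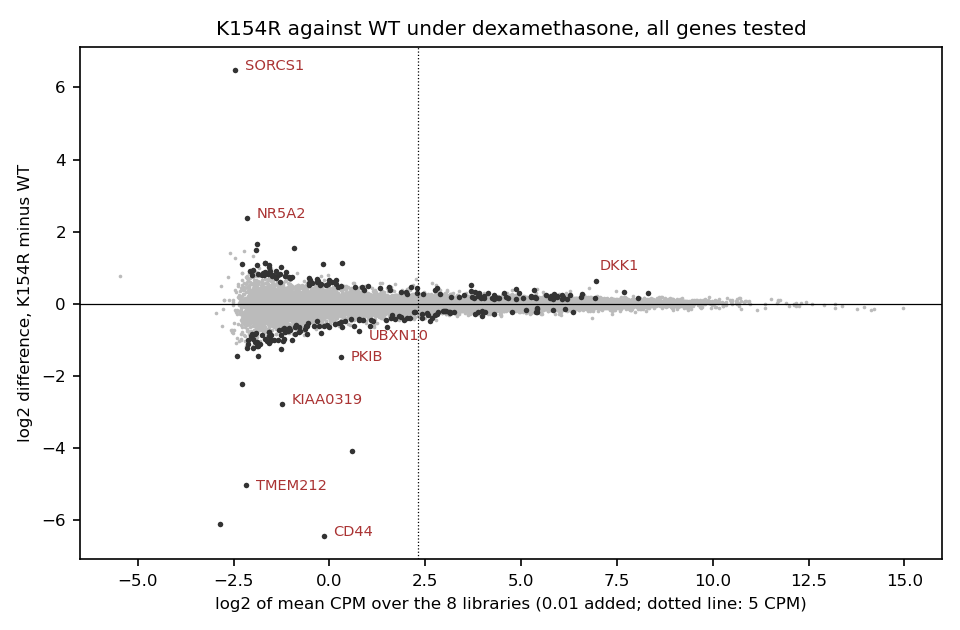
Each point is 1 of the 16196 genes tested; the horizontal axis is the log2 of its mean CPM over the 8 dexamethasone libraries and the vertical axis is the log2 difference, K154R minus WT. Black points are the 253 genes at an unadjusted p under 0.05, none of which passed adjustment; differences beyond 1 lie left of the dotted line at 5 CPM.

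The same receptors were also compared in vehicle, in 8 libraries that the dexamethasone comparison does not use. There, too, 0 genes were called (0%) and 221 had an unadjusted p under 0.05 (1.36%); DESeq2 gave 0 and 199. Of the 253 genes under dexamethasone and the 221 in vehicle, 34 were shared, 13.4% of the first list and 15.4% of the second, and 32 of them had the same sign in both. Of the 253 genes, 183 (72.3%) had the same sign in vehicle, beside 60.4% of all genes tested. Among genes with at least 5 CPM it was 76 of 90 (84.4%), beside 63.8% of all such genes. Across the 10369 genes the differences in the 2 media had a Pearson r of 0.43 and a Spearman rho of 0.39, given as a description; the libraries differ, but cultures of one transduction may be present in both media. Whether the K154R and WT difference itself changed with hormone was tested as an interaction, which called 0 genes (0%) and had 115 at an unadjusted p under 0.05 (0.71%); DESeq2 gave 0 and 84.

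Among genes with at least 5 CPM, those with the smallest p on the K154R side were led by SOBP and DKK1. DKK1 encodes a secreted antagonist of Wnt signalling that binds the LRP5 and LRP6 coreceptors. It measured 88.1, 115, 122 and 65.4 CPM in WT libraries 1 to 4. In K154R libraries 1 to 4 it measured 184, 167, 152 and 100.3 CPM. K154R was higher within each replicate number, here and below a description since the numbers were not taken as pairs, but K154R library 4 lay below WT libraries 2 and 3, so the groups overlapped. The means were 97.8 ± 26.2 and 150.8 ± 36.1 CPM (SD, n = 4), a log2 difference of 0.63 (SE 0.18, 95% interval 0.25 to 1.00, unadjusted p = 0.00208, edgeR adjusted p = 1.00).

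DKK1 showed a like difference without hormone. In vehicle it measured 105, 115, 131 and 84.2 CPM in WT and 180, 201, 201 and 144 CPM in K154R libraries 1 to 4. The groups did not overlap there, and the log2 difference was 0.74 (SE 0.18, unadjusted p = 4.35e-04, edgeR adjusted p = 1.00). The difference with hormone was thus 0.11 smaller on the log2 scale. K154Q cells under dexamethasone had 83.3, 102, 114 and 102 CPM, inside the range of the WT values. With no filter on low counts DKK1 was called under dexamethasone, at an edgeR adjusted p of 1.37e-05 and a log2 difference of 0.62, and it was called in vehicle too. With the replicate block it was called in vehicle and not under dexamethasone.

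Other genes of Wnt signalling did not share the size of this difference. Of the 17 measured genes in a list of 20 Wnt targets and antagonists, 0 were called and DKK1 alone had an unadjusted p under 0.05, 1 of 17 beside 1.56% of all genes. Their median log2 difference was 0.04, with 13 of 17 above 0, beside a median of 0.001 and 50.2% above 0 over all genes tested. MYC, a growth regulator and a Wnt target in many tissues, had a log2 difference of 0.13 (SE 0.09).

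ARAF was higher in every K154R library than in any WT library. This RAF family kinase of the MAPK cascade measured 38.8, 37.2, 37.8 and 39.5 CPM in WT and 43.7, 43.6, 42.4 and 44.1 CPM in K154R libraries. These values were closely grouped within each genotype, and the log2 difference was 0.18 (SE 0.07), against 0.05 (SE 0.07) in vehicle.

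CHST12, a sulfotransferase of chondroitin sulfate synthesis, was barely apart between the groups. WT libraries reached 37.06 CPM and K154R libraries started at 37.14 CPM, with a log2 difference of 0.22 (SE 0.07). RCE1, the protease that trims prenylated proteins, differed in the libraries numbered 1 and 2 and not in the others. It had 33.4 and 31.0 CPM in WT against 56.3 and 50.2 CPM in K154R libraries 1 and 2, and 42.8 and 33.3 against 42.7 and 35.1 CPM in libraries 3 and 4. Others of the 12 with the smallest p on this side were ZNF296, HCFC1R1, ITPKC (an inositol trisphosphate kinase), the kinase MOK, the stathmin family gene STMN3 and LY6E. Their log2 differences and that of SOBP ran from 0.19 to 0.45, with overlapping groups. HCFC1R1 had a log2 difference of 0.34 with dexamethasone and -0.04 in vehicle.

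On the lower side, ZNF41, a KRAB zinc finger gene, had the smallest p. It measured 7.44, 6.78, 7.39 and 8.34 CPM in WT and 5.97, 6.56, 5.59 and 5.91 CPM in K154R libraries 1 to 4. All K154R values lay below all WT values, with a log2 difference of -0.32 (SE 0.09, unadjusted p = 0.00156), and -0.21 (SE 0.09) in vehicle. IFT81, a subunit of the intraflagellar transport complex that builds cilia, measured 18.2, 17.5, 18.5 and 17.4 CPM in WT and 16.8, 15.0, 14.8 and 14.5 CPM in K154R libraries. The groups were again apart, by -0.23 (SE 0.07) on the log2 scale, while in vehicle the difference was -0.04 (SE 0.07).

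DTNA, which encodes dystrobrevin alpha of the dystrophin complex, measured 20.3, 20.8, 23.3 and 21.3 CPM in WT. It measured 18.2, 17.7, 19.3 and 15.5 CPM in K154R libraries, all below the lowest WT library, a log2 difference of -0.28 (SE 0.10) and -0.21 (SE 0.10) in vehicle. TGFA, an EGF receptor ligand, measured 46.2, 43.3, 42.6 and 46.4 CPM in WT and 35.3, 39.8, 36.9 and 42.1 CPM in K154R libraries. Its groups were apart by less than 1 CPM, at a log2 difference of -0.21 (SE 0.09).

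C9orf72, PGBD1, ZNF711 and ATXN7L1 also had all K154R libraries below all WT libraries, with log2 differences of -0.24, -0.24, -0.28 and -0.26. ZNF711 had 0.05 in vehicle. CTNND1 (p120 catenin, a partner of cadherins), CBLB (an E3 ubiquitin ligase), ZDBF2 and SCN9A (a voltage-gated sodium channel) completed the 12, from -0.23 to -0.38 with overlapping groups. The genes on both sides were chosen by p in this comparison, so nothing is read from how many had groups that lay apart.

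**Figure D2:**
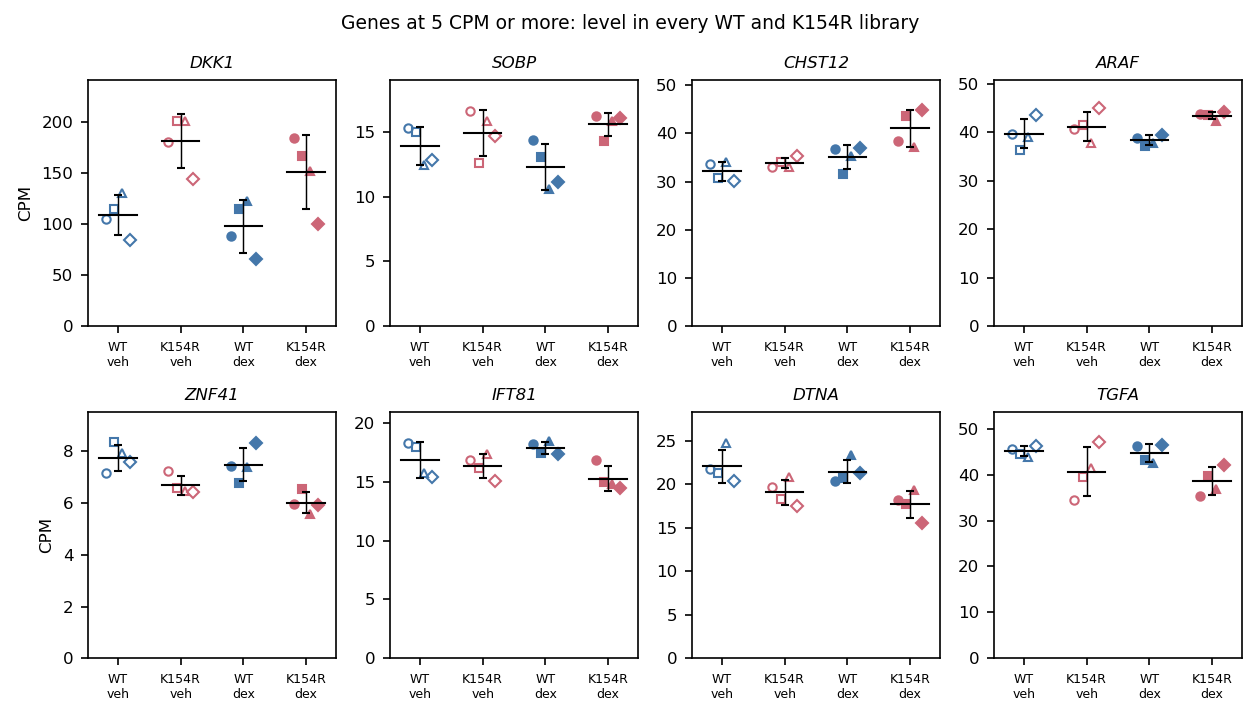
CPM in every WT (blue) and K154R (red) library of 8 genes among the 24 with the smallest p, in vehicle (open) and with dexamethasone (filled); circles, squares, triangles and diamonds are replicate numbers 1 to 4, and bars show the mean and SD. DKK1 overlaps with dexamethasone, because K154R library 4 is at 100.3 CPM, and does not overlap in vehicle.

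Glucocorticoid-induced target genes had mostly small positive differences, none of them called. A list of 30 such genes had 27 measured members; IRS2, TFCP2L1 and ZBTB16 were below the count filter. Of the 27, 0 were called and 0 had an unadjusted p under 0.05 (1.56% of all genes did), while 25 had a log2 difference above 0, beside 50.2% of all genes. Their median was 0.10, with a range from -0.34 to 0.59, beside 0.001 over all genes. Without K154R library 4 the count was 13 of 27 and the median -0.01, and without any other single library it was 18 to 26 of 27 with medians from 0.06 to 0.18. In vehicle the count was 12 of 27 with a median of -0.02. The libraries numbered 1 and 2 alone gave 17 of 26 and 0.09, and those numbered 3 and 4 gave 20 of 27 and 0.12.

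FKBP5, a chaperone of the receptor that glucocorticoids induce, measured 99.99, 109, 92.6 and 108 CPM in WT and 107, 118, 99.8 and 128 CPM in K154R libraries 1 to 4. K154R was the higher within each number, by 0.10, 0.12, 0.11 and 0.24 on the log2 scale, though the groups overlapped. The fitted difference was 0.14 (SE 0.09, 95% interval -0.05 to 0.33). In vehicle, FKBP5 measured 50.6 to 54.0 CPM in WT and 44.1 to 58.1 CPM in K154R libraries. The rise after hormone was called in both (among 0.161% of genes in WT and 0.309% in K154R cells), at 0.98 in WT and 1.17 in K154R cells (edgeR adjusted p = 3.34e-06 and 8.99e-08), and the difference of these rises, 0.19, had an unadjusted p of 0.149.

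DUSP1, a phosphatase that switches off MAP kinases, measured 12.7, 14.6, 16.6 and 17.5 CPM in WT and 14.2, 17.5, 19.01 and 23.6 CPM in K154R libraries. It was higher in K154R within each number, with a log2 difference of 0.28 (SE 0.16, unadjusted p = 0.0964), and -0.11 (SE 0.16) in vehicle. CRY2, a repressor of the circadian clock, measured 29.4, 29.9, 29.05 and 31.4 CPM in WT and 31.0, 37.4, 28.2 and 35.9 CPM in K154R libraries. Its difference was 0.15 (SE 0.09) with hormone and -0.11 (SE 0.09) in vehicle. PER1, another clock gene, measured 14.0, 10.2, 12.1 and 15.7 CPM in WT and 16.8, 14.3, 12.9 and 15.7 CPM in K154R libraries, a difference of 0.20 (SE 0.15).

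The targets with few reads had wide intervals. TSC22D3 (GILZ), a mediator of anti-inflammatory effects, measured 0.679, 0.977, 1.08 and 2.12 CPM in WT and 0.929, 1.31, 1.18 and 3.83 CPM in K154R libraries. K154R library 4 stood above the rest, and the difference of 0.59 (SE 0.48, 95% interval -0.41 to 1.59) was -0.09 without it. PDK4, which inhibits pyruvate dehydrogenase, had 10, 14, 7 and 26 counts in WT and 10, 16, 2 and 32 counts in K154R libraries, a log2 difference of 0.10 (SE 0.49). HIF3A, a hypoxia-inducible factor subunit, had 34, 7, 13 and 23 counts in WT and 10, 20, 23 and 29 counts in K154R libraries, at 0.12 (SE 0.38). The sign for PDK4 and HIF3A turned when single libraries were left out. ANGPTL4, an inhibitor of lipoprotein lipase, had a log2 difference of -0.02 (SE 0.26). It and PCK1, the gluconeogenic enzyme, at -0.34 (SE 0.40), were the 2 of 27 below 0; PCK1 was singled out after its value was seen.

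**Figure D3:**
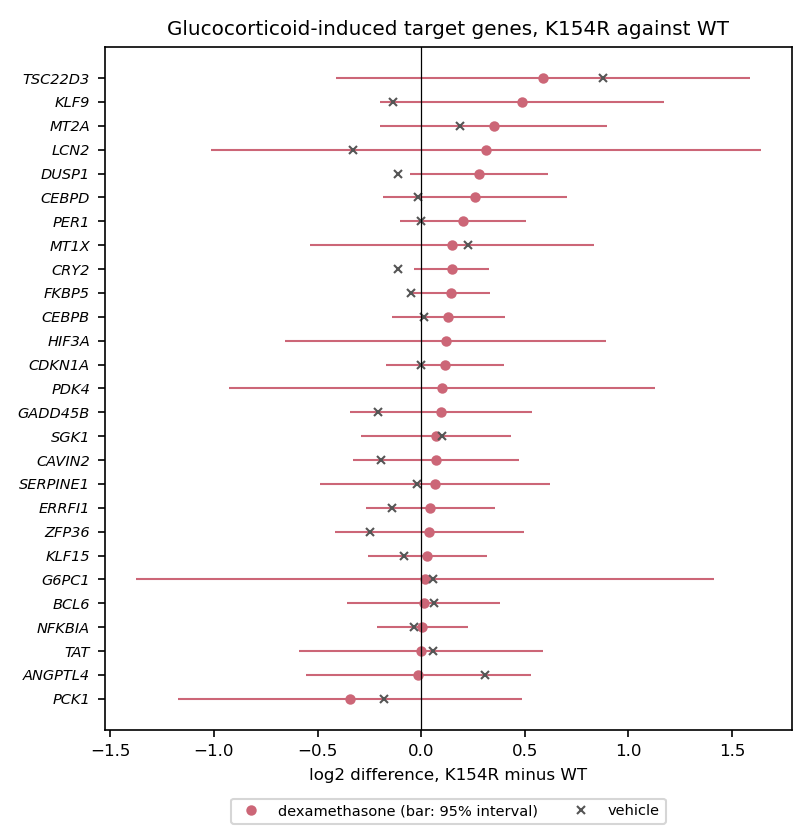
Log2 difference, K154R minus WT, for the 27 measured glucocorticoid-induced target genes, with dexamethasone (points, with 95% intervals) and in vehicle (crosses); HIF3A and PDK4 have no cross because a vehicle group had at most 3 counts. Of the 27 points 25 lie above 0, and all 27 intervals include 0.

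The same was asked of genes picked without these libraries. In K154Q cells 21 genes were called higher with dexamethasone than in vehicle (0.13% of those tested); their selection used neither WT nor K154R levels beyond a shared estimate of spread. Of these 21, 0 were called between K154R and WT (0% of all genes), 17 had a log2 difference above 0, and the median was 0.14. In vehicle 8 of 21 were above 0, with a median of -0.05. Without K154R library 4 the count was 14 of 21 and the median 0.04. FKBP5, PDK4, HIF3A and CRY2 are in both lists.

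Promoter sequence was read from RefSeq windows of GRCh38.p14, from 250 bases before to 50 after a gene start. Only the window listed first for each gene symbol was used, so other starts of a gene were not searched. The core of the glucocorticoid response element was searched as ACANNNTGT, which reads the same on both strands. It was found in 2 of the 23 measured targets with a window (8.7%), beside 1488 of 27305 windows (5.45%). It was in none of the windows of 10 of the 12 higher genes and 11 of the 12 lower ones, which says only that these letters are absent from those windows. The 2 target promoters with a match are shown because their genes sit at the top and in the middle of the list, at 0.59 for TSC22D3 and 0.07 for CAVIN2 (a caveolar coat protein, whose sign turned when single libraries were left out); capitals mark the match.
TSC22D3, chrX:107775980-107776039, minus strand: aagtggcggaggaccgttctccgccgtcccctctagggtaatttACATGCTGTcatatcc
CAVIN2, chr2:191847191-191847250, minus strand: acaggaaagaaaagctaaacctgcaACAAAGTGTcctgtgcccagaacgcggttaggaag
The match starts 7 bases before the gene start in TSC22D3 and 137 bases before it in CAVIN2. A TCF/LEF motif, CTTTGAT, searched on both strands, was in 2.64% of all windows and in 0 of the 10 windows of the higher genes, DKK1 among them. It was in 1 of the 11 windows of the lower genes (ZNF41, 9.09%) and in 1 of the 23 target windows (G6PC1, 4.35%); both genes are named for the match.

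The receptor's partners gave no call. Of 18 receptor chaperones, 17 had a log2 difference above 0 with a median of 0.08, and 14 of 18 did in vehicle. The libraries numbered 1 and 2 alone gave 6 of 18 and -0.04, and those numbered 3 and 4 gave 17 of 18 and 0.18. Without WT library 4 the count was 9 of 18 and the median 0.002. HSPA1A, the inducible HSP70, measured 29.8, 30.5, 37.1 and 24.9 CPM in WT and 32.9, 35.4, 43.1 and 31.7 CPM in K154R libraries. It was higher in K154R within each number, at 0.23 (SE 0.15) under both conditions; its reads may be shared with the near-identical HSPA1B. Of 19 measured coregulators 10 were above 0, with a median of 0.02; TRIM28, a corepressor, had 0.14 (SE 0.08), and -0.02 in the libraries numbered 1 and 2. The 28 measured acetyltransferases and deacetylases had a median of 0.01, with 17 above 0, and the acetyltransferase KAT2B had the smallest p among them, at -0.37 (SE 0.21).

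Gene groups of protein synthesis and breakdown had opposite signs in the libraries numbered 1 and 2 and in those numbered 3 and 4. With all 4 numbers, 31 of 32 cytosolic ribosomal protein genes had a log2 difference above 0, with a median of 0.06. In the libraries numbered 1 and 2 it was 0 of 32 with a median of -0.16, and in those numbered 3 and 4 it was 32 of 32 with 0.25. With all numbers but without K154R library 3 it was 12 of 32 (-0.02), and without K154R library 4 it was 20 of 32 (0.01). RPL18, for instance, measured 481, 580, 547 and 546 CPM in WT and 458, 538, 696 and 677 CPM in K154R libraries. RPLP2 did alike, with 466, 534, 535 and 526 CPM in WT and 458, 522, 658 and 615 CPM in K154R libraries. The K154R libraries 3 and 4 were thus the highest of the 8 for both genes, and libraries 1 of both groups the lowest. In vehicle 29 of 32 cytosolic ribosomal protein genes were above 0, with a median of 0.06.

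Mitochondrial ribosomal protein genes and proteasome subunits had the same split. The first were above 0 in 26 of 30 with all numbers (median 0.06), in 1 of 30 in numbers 1 and 2 (-0.10) and in 30 of 30 in numbers 3 and 4 (0.20), and in 15 of 30 without K154R library 3 (0.008). MRPL2 among them had a difference of 0.22 (SE 0.12). Proteasome subunits, which degrade ubiquitin-tagged proteins including the receptor, were above 0 in 35 of 37 with all numbers (0.06), in 3 of 37 in numbers 1 and 2 (-0.10) and in 36 of 37 in numbers 3 and 4 (0.18), and in 22 of 37 without WT library 4 (0.02). PSMD3, a subunit of the regulatory lid, measured 176, 192, 189 and 168 CPM in WT and 183, 197, 222 and 202 CPM in K154R libraries, a difference of 0.15 (SE 0.08). PSMB6, a catalytic subunit, had 0.17 (SE 0.11), and -0.03 in the libraries numbered 1 and 2. In vehicle 25 of 30 mitochondrial ribosomal protein genes were above 0 (median 0.05), as were 33 of 37 proteasome subunits (0.04).

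Messengers of the mitochondrial genome had the reverse split. Of 13, 1 was above 0 with all numbers, with a median of -0.06, but 12 were in the libraries numbered 1 and 2 (0.12) and 0 in those numbered 3 and 4 (-0.29). Without K154R library 4 alone 11 of 13 were above 0 (0.03). COX1, a subunit of cytochrome c oxidase, measured 17851, 21615, 20314 and 20078 CPM in WT and 18651, 22269, 15478 and 15715 CPM in K154R libraries. ND4L, a subunit of complex I, measured 1802, 1904, 1714 and 1817 CPM in WT and 1970, 1909, 1275 and 1365 CPM in K154R libraries. K154R libraries 3 and 4 were the lowest of the 8 for both, and their share of all counts on the mitochondrial genome, 7.26% and 6.67%, was also the lowest of the 8; its part in the split of the other lists was not tested. In vehicle all 13 were above 0, with a median of 0.22. There WT library 4 had 5.16% of its counts on the mitochondrial genome. WT libraries 1 to 3 in vehicle had 7.41% to 8.02%, and the K154R libraries in vehicle had 7.25% to 8.53%. How far the vehicle median rests on that 1 library was not tested. No gene of these 4 groups was called or had an unadjusted p under 0.05 with dexamethasone, and what the replicate numbers stand for was not tested.

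**Figure D4:**
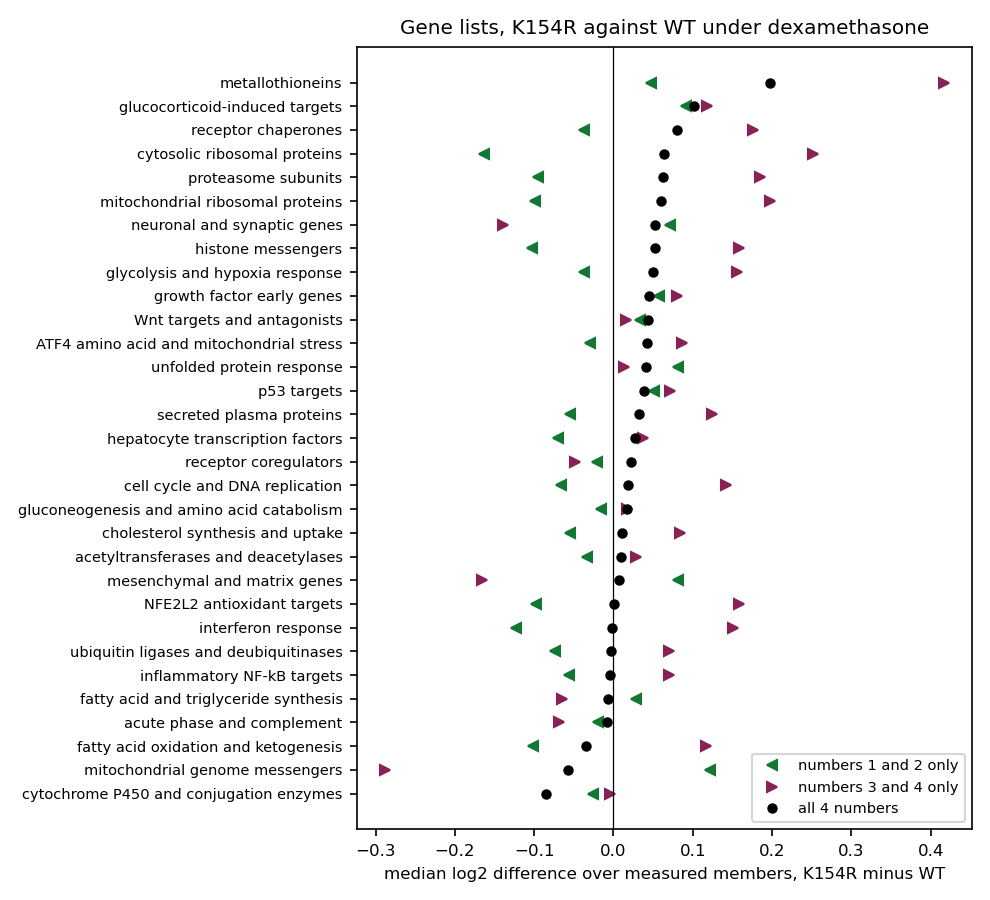
Median log2 difference, K154R minus WT with dexamethasone, over the measured members of each of 31 gene lists, for all 4 replicate numbers (black), for numbers 1 and 2 (left-pointing) and for numbers 3 and 4 (right-pointing). Ribosomal, proteasome and mitochondrial genome lists have triangles on opposite sides of 0, from -0.16 to 0.25 for cytosolic ribosomal proteins.

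Genes of the endoplasmic reticulum stress response gave no call; of 20, CRELD2 and SDF2L1 were higher at an unadjusted p under 0.05, beside 0.79% of all genes. CRELD2, a disulfide isomerase-like protein, measured 55.7, 61.0, 62.4 and 50.7 CPM in WT and 60.7, 72.6, 68.2 and 61.3 CPM in K154R libraries. SDF2L1, a cofactor of the chaperone BiP, measured 47.6, 62.2, 58.4 and 41.2 CPM in WT and 54.6, 68.2, 70.1 and 61.5 CPM in K154R libraries. Both were higher in K154R within each number and overlapped between groups, at 0.19 (SE 0.08) and 0.28 (SE 0.12). Of the 20 genes of the list 15 were above 0, with a median of 0.04, but 5 without WT library 4 (-0.04) and 9 without K154R library 2 (-0.009); in vehicle it was 20 of 20 with a median of 0.12.

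Hepatocyte products and regulators were spread on both sides of 0. ALB (albumin) measured 19040, 20205, 18742 and 18058 CPM in WT and 16062, 16438, 16306 and 18463 CPM in K154R libraries. Libraries 1 to 3 of K154R lay below all WT libraries and library 4 among them, with a log2 difference of -0.18 (SE 0.10) and -0.04 in vehicle. APOA2, an HDL apolipoprotein, had 0.16 (SE 0.11), and the 25 measured plasma protein genes had a median of 0.03 with 16 above 0, or 9 without K154R library 4. HNF4G, a hepatocyte nuclear factor, measured 9.55 to 11.5 CPM in WT and 7.56 to 9.49 CPM in K154R libraries, with no overlap and a difference of -0.22 (SE 0.11).

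Metabolic lists also had no call. The desaturase FADS2 and the elongase ELOVL6 had 0.35 (SE 0.22) and 0.17 (SE 0.11), within a list of 18 lipid synthesis genes with a median of -0.01. A list of 20 measured gluconeogenic and amino acid catabolism genes had a median of 0.02. In the list of 16 measured cytochrome P450 and conjugation enzymes, 1 was higher (CYP2E1, an ethanol-metabolizing P450 named after its value was seen, 0.79 with SE 0.37) and 2 lower at an unadjusted p under 0.05, beside 0.79% and 0.772% of all genes, and the median was -0.09. CYP3A7, a fetal P450 with close paralogs that may share its reads, measured 0.334 to 0.674 CPM in WT and 0.104 to 0.377 CPM in K154R libraries, a difference of -1.09 (SE 0.38). SULT1E1, the estrogen sulfotransferase, measured 0.225 to 0.485 CPM in WT and 0.104 to 0.189 CPM in K154R libraries, -1.21 (SE 0.48).

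The 8 measured genes of a list of metallothioneins, their regulator MTF1 and the zinc transporter SLC30A1 had a median of 0.20 with 6 above 0. In vehicle 7 of 8 were above 0, with a median of 0.24. With dexamethasone but without WT library 4 the median was -0.07. MT2A among them measured 50.5, 77.4, 91.5 and 51.1 CPM in WT and 58.1, 108, 109 and 68.9 CPM in K154R libraries, 0.35 (SE 0.26). Of 30 cell cycle genes 22 were above 0 with a median of 0.02, which was 6 of 30 in numbers 1 and 2 and 26 of 30 in numbers 3 and 4, and 8 of 30 without WT library 4. The mitotic genes PLK1 and CDC20 had 0.16 and 0.15 (SE 0.10 each). Of 12 measured inflammatory NF-kB targets 6 were above 0, and of 19 interferon genes 9 were, where IRF1 had the smallest p at 0.26 (SE 0.14).

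The largest fitted differences belonged to genes with few reads, singled out after their values were seen, and several sat in a pair of replicate numbers. CD44, a hyaluronan receptor, had 91, 134, 1 and 0 counts in WT libraries 1 to 4 and 1, 1, 0 and 0 in K154R libraries. Reads came from WT libraries 1 and 2, and the log2 difference was -6.43 (SE 1.70, unadjusted p = 9.46e-04, the smallest of all genes, edgeR adjusted p = 1.00, and 2.79e-07 with the replicate block). In vehicle it had 98, 123, 0 and 1 counts in WT and 1, 0, 0 and 0 in K154R libraries, the same pair of numbers. K154Q libraries with dexamethasone had 0, 1, 0 and 0 counts.

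TMEM212 and KIAA0319 had their reads in the other pair of WT numbers. TMEM212 had 1, 2, 29 and 15 counts in WT and 0, 0, 1 and 0 in K154R libraries. KIAA0319, a membrane protein gene, had 2, 0, 33 and 50 counts in WT and 1, 5, 2 and 4 in K154R libraries. In vehicle WT libraries 3 and 4 again held most WT reads, 34 and 29 for TMEM212 and 44 and 35 for KIAA0319.

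NR5A2 and SORCS1 had reads in K154R libraries, each in its own pair of numbers. NR5A2, a nuclear receptor of liver and pancreas, had 15, 20, 4 and 3 counts in K154R and 2, 1, 3 and 2 in WT libraries, and 27, 29, 1 and 0 in K154R libraries in vehicle. SORCS1, a sorting receptor, had 0, 0, 28 and 13 counts in K154R libraries and 0 in every WT library. In vehicle SORCS1 had 0, 0, 25 and 23 counts in K154R libraries and again 0 in every WT library.

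PKIB, UBXN10 and C19orf38 were lower in K154R without overlap. PKIB, an inhibitor of protein kinase A, had 47, 48, 68 and 55 counts in WT and 10, 6, 27 and 34 in K154R libraries, a log2 difference of -1.48 (SE 0.45) and -1.45 in vehicle. Its edgeR adjusted p was 1.00, and 0.0132 with the replicate block. K154Q libraries with dexamethasone had 7, 9, 15 and 13 counts of it. UBXN10, a ciliary cofactor of the p97 ATPase, had 56, 56, 64 and 83 counts in WT and 31, 40, 33 and 46 in K154R libraries, -0.76 (SE 0.22) and -0.92 in vehicle. For UBXN10 the K154Q libraries with dexamethasone had 57, 75, 95 and 72 counts. In CPM library 3 of these, at 2.87, lay above the WT range and the others inside it. C19orf38 had 4, 8, 9 and 19 counts in WT and 0, 3, 1 and 4 in K154R libraries, a log2 difference of -2.22 (SE 0.73). Its WT library 1 and K154R library 4 had 4 counts each, and the gap between the groups in CPM was small.

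With no filter on low counts, 8 genes were called, 2 higher and 6 lower, among 37960 tested. They included DKK1, SORCS1, CD44, KIAA0319, PKIB and TMEM212, and the other 2, ENSG00000226994 and ENSG00000287899, have no symbol in the table. In the libraries numbered 1 and 2 alone CD44 was called (edgeR adjusted p = 0.00324), and in those numbered 3 and 4 alone ENSG00000287899 was called.

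**Figure D5:**
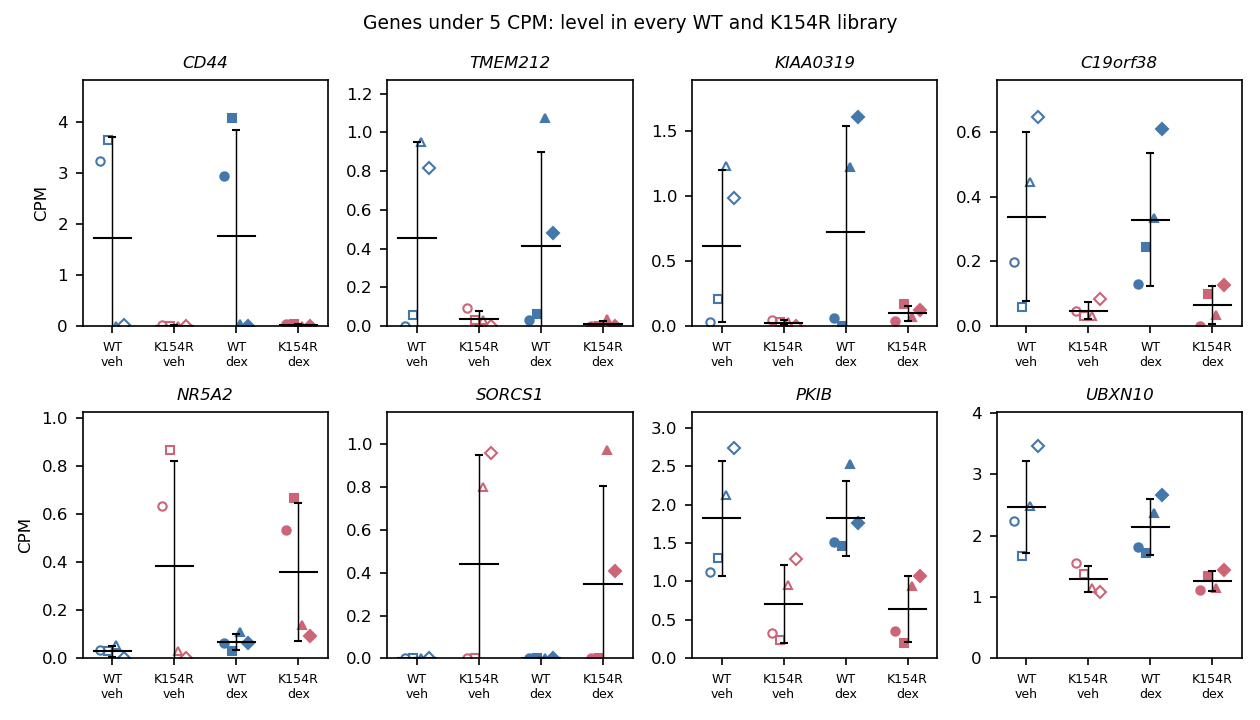
CPM in every WT (blue) and K154R (red) library of 8 genes under 5 CPM, in vehicle (open) and with dexamethasone (filled); circles, squares, triangles and diamonds are replicate numbers 1 to 4, and bars show the mean and SD, cut at 0. CD44 reads lie in WT numbers 1 and 2, TMEM212 and KIAA0319 in WT numbers 3 and 4, NR5A2 in K154R numbers 1 and 2 and SORCS1 in K154R numbers 3 and 4, in both media.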

How the data were processed

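The deposited values are raw counts of reads per gene, which the authors had not normalized. Input was 300 ng of total RNA (integrity number 8.6 or more), with poly(A) selection and a directional kit, per the labels' protocols. Per the submitters' processing notes, bcl2fastq 2.20.0.422, cutadapt 3.7, STAR 2.7.6a, featureCounts 2.0.3 and GRCh38.p13 were used. The annotation release, strand setting and handling of multi-mapping reads were not known here, so values of overlapping, antisense and near-identical genes are uncertain.

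Samples were grouped by title. Genes passing filterByExpr (16196 of 60683) were scaled by TMM and fitted with 1 mean per group over all 24 libraries in edgeR 4.0.16 (limma 3.58.1, R 4.3.3), with no term for replicate number. The threshold for a call was 0.05 on p adjusted by Benjamini and Hochberg's method over all genes tested. CPM are TMM-scaled, ± is the SD of 4 libraries, and SE is the absolute log2 difference over the root of F. No pair of replicates agreed within sampling noise, so spread between replicates, not depth, limits precision for well-expressed genes. The analysis was tested on simulated data, drawn with no effect shared by libraries of one replicate number. It therefore does not show how the tests behave where such an effect is present. DESeq2 1.42.0 was an alternative.

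The members, the 31 lists (all 731 entries matched by identifier) and the naming rule were chosen with earlier results of these data known. Among genes with a symbol and at least 5 CPM over the 8 libraries, the rule took the 12 smallest p in each direction and the 8 smallest in each direction with a replicate block; at any level it took called genes, the 2 smallest-p measured members per list, and NR3C1, FKBP5, TSC22D3, PDK4, DUSP1, PER1, HIF3A and ANGPTL4; the text names part of these, and some are not reported here. PCK1, CAVIN2, G6PC1, CYP2E1, LAMC3, CLDN6, TMEM59L, CD44, TMEM212, KIAA0319, SORCS1, PKIB, UBXN10 and C19orf38 were singled out after their values were seen. Coordinates are from GENCODE 29.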

Additional observations from a re-analysis of the deposited data

Results flagged for a closer look

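In 5 of 140 groups of 4 libraries checked, a library lay farther from the others than Dixon's 95% critical value allows; chance alone does this in about 1 in 20 groups. ALB in K154R library 4 with dexamethasone measured 18463 CPM, with the other 3 libraries between 16062 and 16438 CPM. TSC22D3 in K154R library 4 measured 3.83 CPM, with the others between 0.929 and 1.31 CPM. RPLP2 in WT library 1 measured 466 CPM, with the others between 526 and 535 CPM. TMEM212 in K154R library 3 measured 0.0347 CPM, which is 1 count, with 0 in the others. CLDN6, a claudin of tight junctions, measured 12.7 CPM in K154R library 2, with the others between 6.04 and 6.91 CPM, and its log2 difference was 0.54, or 0.23 without that library.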

How the results depend on the processing

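For K154R minus WT with dexamethasone, 0 genes were called, and 0 were with RLE scaling, DESeq2, a fit of the 8 libraries alone or any 1 library left out (range 0 to 0). The count was 8 with no filter on low counts, 1 in numbers 1 and 2 only (CD44) and 1 in numbers 3 and 4 only (ENSG00000287899). Genes at an unadjusted p under 0.05 ran from 195 to 526 with 1 library left out, and were 858 with no filter, 481 in numbers 1 and 2, 1149 in numbers 3 and 4 and 138 with the 8 libraries alone. In vehicle the call count of 0 became 15 with no filter, 2 in numbers 1 and 2 (CD44 and NR5A2) and 2 in numbers 3 and 4 (ENSG00000287899 and SHC3), and stayed 0 with any 1 library left out. The interaction called 0 genes under every alternative run. The cause of these shifts was not tested.

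With the replicate number as a block, 2 genes were called with dexamethasone (CD44 and PKIB, both lower; 942 at an unadjusted p under 0.05) and 4 in vehicle (CD44, DKK1, PKIB and SORCS1); with only the libraries of the contrast the replicate block gave 0 (494) and 3 (DKK1, IGFBP7 and PKIB). As a check of pairing, deviations of same-numbered K154R and WT libraries correlated at 0.08 to 0.35, with 3 of 4 over 0.1, and 6 of 8 libraries were closest to their own number. That is a hint from the data and not the design, and the fits reported do not take the numbers as pairs; values set side by side by number are a description.

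Of 70 genes named, 12 turned sign in at least 1 setting. In numbers 1 and 2 only, log2 differences were -0.022 for TRIM28, -0.035 for PSMB6, 0.044 for COX1, 0.058 for ND4L, -0.038 for RPLP2, -0.10 for RPL18, -0.34 for HIF3A and 0.30 for ANGPTL4, and PDK4 was -0.029 in numbers 3 and 4 only. With 1 library left out, values ran from -0.16 to 0.027 for NR3C1, from -0.089 to 1.00 for TSC22D3, from -0.52 to 0.54 for PDK4, from -0.18 to 0.53 for HIF3A, from -0.21 to 0.34 for ANGPTL4 and from -0.044 to 0.20 for CAVIN2. ANGPTL4 was 0.0081 with the replicate block and 0.0072 with that block in the 8 libraries alone. The cause was not tested. The count of members above 0 moved by over 1.5 times without 1 library in 22 of 32 lists. PDK4 had few counts, 2 to 32 in a library, and its libraries differed within each group. For CD44, with 0 to 134 counts in WT libraries, the libraries of a group also differed widely. How much of this came from depth and how much from spread between libraries was not tested.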

Other observations

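The gene lists not yet described also held 0 called genes between K154R and WT with dexamethasone, and apart from NR5A2 none of their measured members had an unadjusted p under 0.05 (1.56% of all genes did). Of 24 genes of glycolysis and the hypoxia response 15 were above 0, with a median log2 difference of 0.05, and of 19 p53 targets 13 were, with 0.04. Of 20 genes of the ATF4 response, which answers amino acid shortage, 12 were above 0 (0.04), as were 14 of 23 growth factor early genes (0.05) and 8 of 13 histone messengers (0.05). Of 23 cholesterol synthesis genes 12 were above 0 (0.01), and of 23 antioxidant targets of NFE2L2, a stress-activated transcription factor, 12 were. On the other side of 0 lay the medians of 23 fatty acid oxidation genes, 10 of them above 0 (-0.03), of 19 acute phase and complement genes, 9 above 0 (-0.009), and of 22 ubiquitin ligases and deubiquitinases, 11 above 0 (-0.004). Of 21 hepatocyte transcription factors 11 were above 0 (0.03), of 14 matrix genes 7 (0.007) and of 5 neuronal genes 3 (0.05).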
